A study of Mus musculus with 2 samples.

Results

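The basal cells described here were the cell barcodes of the adult mouse vomeronasal organ (VNO) that carried at least 5 unique molecular identifiers (UMIs) of *Krt5* and at least 5 UMIs of *Krt14*, at most 2 UMIs of the macrophage genes *C1qa*, *C1qb* and *C1qc* together and 0 UMIs of *Neurod1*, a gene of neuronal precursors. They were taken from barcodes with 200 to 9000 genes and at most 5% of UMIs from mitochondrial genes. A total of 1077 cells met the rule (560 in library 1 and 517 in library 2), which was 10.2% of the 10591 barcodes kept by the gene and mitochondrial limits and came from 24084 deposited barcodes. The share was 9.83% of kept cells in library 1 and 10.6% in library 2. Both libraries were single-cell RNA-seq of VNOs from wild-type C57BL/6J male mice at postnatal day 60, without transgene, allele or treatment. The tissue was dissociated with papain and collagenase and frozen before capture, the protocol names 5 organs, and the sources used here do not say how the mice were divided between libraries. The study has no second condition, so that the basal cells were compared with 3 other epithelial groups of the same libraries, and p-values measure only the spread between 2 libraries, which may be technical.

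Basal cells of stratified and pseudostratified epithelia sit on the basement membrane, to which they are held by hemidesmosomes, and their cytoplasm is filled with filaments of keratins 5 and 14. The transcription factor p63, encoded by *Trp63*, is required for this cell state. In the olfactory epithelium, horizontal basal cells with these keratins form a quiescent reserve of stem cells, whereas globose basal cells divide and give rise to neurons.

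Of the 6 markers, *Krt5* lies on chromosome 15 (GRCm38), *Krt14* and *Krt15* on 11, *Trp63* on 16, *Dlk2* on 17 and *Col17a1* on 19. The cells were chosen by their *Krt5* and *Krt14* counts (with the C1q and *Neurod1* limits), whereas *Krt15*, *Trp63*, *Col17a1* and *Dlk2* played no part in the choice. The promoters of the rule gene *Krt5* and of *Col17a1*, the gene of the transmembrane collagen of hemidesmosomes, are shown to place both genes (RefSeq, GRCm38.p6), as the 250 bases before each start site, 5′ to 3′ on the strand of the gene, at chr15:101712906-101713155 and chr19:47692043-47692292, both on the minus strand. Capitals mark a match to the p53-family response element decamer, which reads the same on both strands.
Krt5: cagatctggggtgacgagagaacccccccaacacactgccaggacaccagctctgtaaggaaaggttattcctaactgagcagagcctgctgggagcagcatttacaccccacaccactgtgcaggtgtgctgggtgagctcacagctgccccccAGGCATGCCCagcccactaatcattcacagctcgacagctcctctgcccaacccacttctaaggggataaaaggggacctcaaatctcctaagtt
Col17a1: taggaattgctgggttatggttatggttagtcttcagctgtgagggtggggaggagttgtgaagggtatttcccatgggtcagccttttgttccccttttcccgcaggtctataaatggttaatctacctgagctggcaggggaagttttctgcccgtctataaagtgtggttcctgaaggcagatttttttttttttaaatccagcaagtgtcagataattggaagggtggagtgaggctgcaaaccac
The *Krt5* window held 1 match, which began 95 bases before the start site, the *Col17a1* window held 0, and 7.13% of the 32851 windows of the same length held one. A match is a description of these letters and not of a bound site. A window that starts near the annotated gene start was at hand for 3 of the 6 markers, and that of *Dlk2* also held 0 matches.

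The members had a median of 9701 UMIs (range 3171 to 56921) and 2583 genes per cell, with 3.90% mitochondrial UMIs at the median. Their summed UMIs were 6344893 in library 1 and 5554097 in library 2, and a doublet caller marked 23 of them (2.14%). The libraries shared 33 barcode sequences, of which 0 were members. Some members carried genes of other cells. At least 5 of 10 mature neuron markers were found in 23 members (10 and 13 in libraries 1 and 2), whose median was 24740 UMIs and of which 9 were marked as doublets. At least 50% of the markers of another list were found in 50 members, of which 20 were marked as doublets. The lists counted were those of neurogenic, mature neuron, immune, endothelial, fibroblast and mural, and olfactory ensheathing cells. The non-sensory, sustentacular and gland lists took no part. At least 5 genes of the non-sensory list were found in 971 members and at least 4 of the gland list in 84. The tests were therefore also run without the 23 and without the 50 members.

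The marker genes that the rule did not use were present in most members. *Krt15*, a keratin of basal keratinocytes, was counted at 1178 and 1199 UMIs per 1000000 (CPM) in libraries 1 and 2 and was detected in 86.4% of members (95% exact binomial interval 84.2 to 88.3%). *Trp63* was at 111 and 138 CPM and in 67.7% (64.8 to 70.5%). *Col17a1* was at 164 and 202 CPM and in 82.4% (79.9 to 84.6%), and *Dlk2*, a Notch-ligand-like transmembrane protein, was at 140 and 128 CPM and in 58.8% (55.8 to 61.7%). These intervals cover counting error only. In C1q-high cells, a macrophage-type group that should lack these genes (at least 10 C1q UMIs, 1694 cells, median 5044 UMIs), the shares were 4.43, 2.18, 2.66 and 1.24%. Thinning to 6888 UMIs left out shallower cells and kept 971 of 1077 members and 416 of the 1694 C1q-high cells. The shares were then 83.1, 55.5, 70.2 and 49.7% in members and 11.1, 5.29, 7.21 and 3.61% in the C1q-high cells. The label of basal cells was thus met by all 4 markers outside the rule, in each library.

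**Figure D1:**
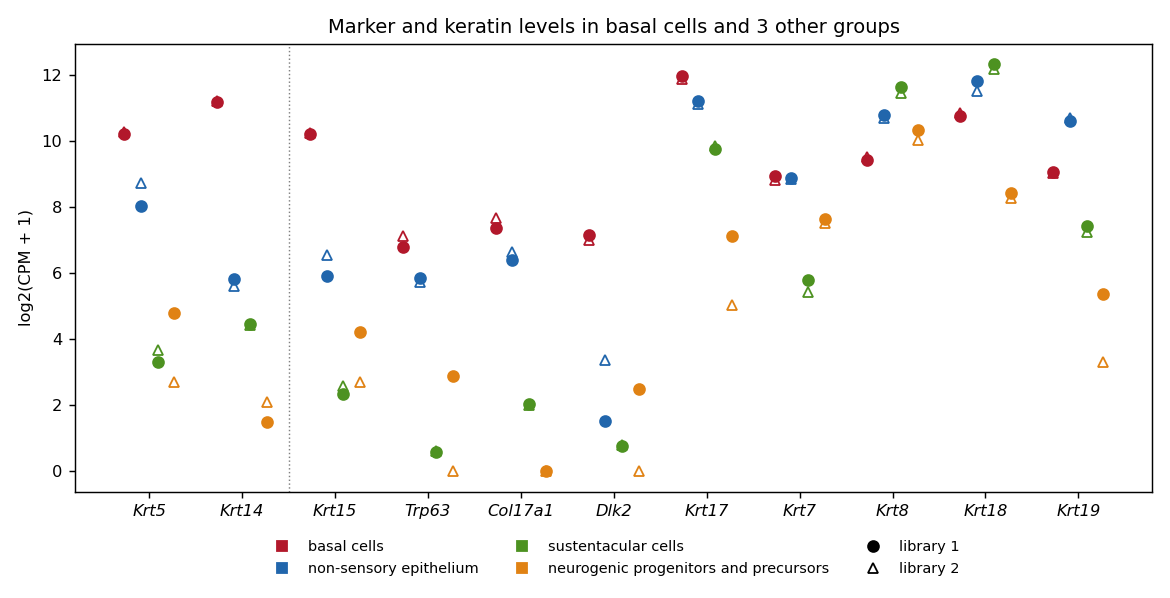
Level of the basal cell markers in each library (log2 of CPM + 1, from summed UMIs) and of other keratins for basal cells and the 3 comparison groups, with 1 point per library. The rule genes *Krt5* and *Krt14* are high in the basal cells by construction, and *Krt15* sits at 1178 and 1199 CPM there against 58.9 and 93.4 CPM in the non-sensory epithelium.

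The rule genes spanned a wide range, with a median of 10 *Krt5* UMIs per member (highest 138) and 19 *Krt14* UMIs (highest 202). On either side of the *Krt14* threshold, 282 cells with 1 to 4 UMIs that met all other limits had *Krt15* at 818 CPM, *Trp63* at 114, *Col17a1* at 178 and *Dlk2* at 113 CPM. The 258 members with 5 to 9 UMIs had 807, 129, 177 and 119 CPM. The 262 cells with 0 *Krt14* UMIs differed more, with *Krt15* at 501, *Trp63* at 77.3, *Dlk2* at 48.1 and *Krt19* at 1264 CPM. Among members with 20 or more *Krt14* UMIs (518 cells), *Krt15* was at 1441 CPM and *Lgals7*, a galectin of stratified epithelium, at 301 CPM, compared with 95.3 CPM at 5 to 9 UMIs. The pooled *Krt15* values on either side of the threshold hid opposite shifts, from 999 CPM in cells with 1 to 4 UMIs to 666 CPM in those with 5 to 9 in library 1 and from 615 to 972 CPM in library 2. The *Krt5* threshold separated 162 cells with 1 to 4 UMIs, in which *Krt15* was at 575 CPM and *Trp63* at 125 CPM, from 466 members with 5 to 9 UMIs, in which they were at 665 and 122 CPM.

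**Figure D2:**
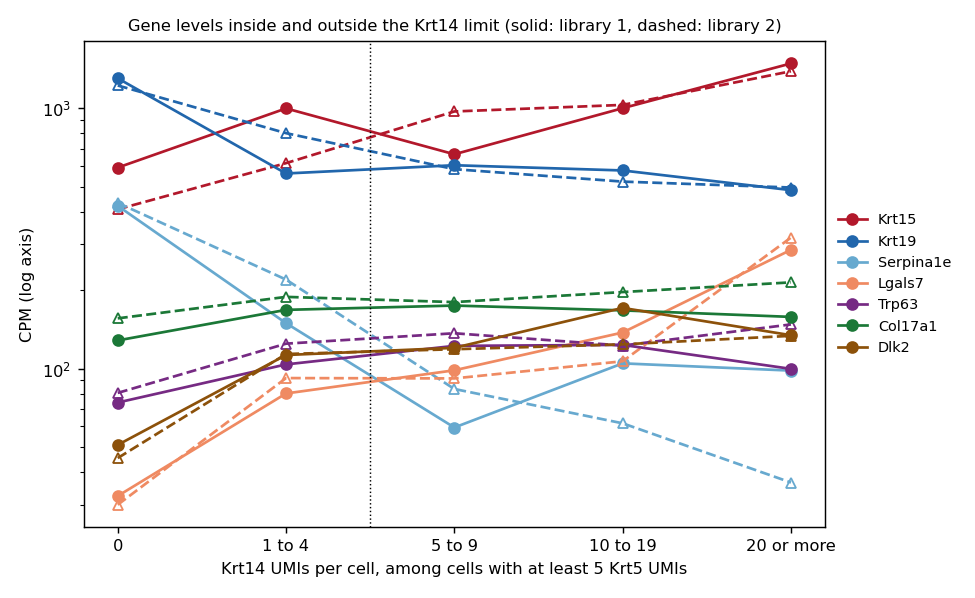
Level of marker genes (CPM on a logarithmic axis, 1 line per library) in cells that met the other limits of the rule, split by their number of *Krt14* UMIs (horizontal axis), with the limit of the rule as a dotted line. Cells with 1 to 4 UMIs, outside the rule, and with 5 to 9 UMIs, inside it, had *Trp63* at 114 and 129 CPM over both libraries.

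The closest group was the non-sensory epithelium, a class of lining cells taken as kept cells with at least 3 UMIs each of *Krt19* and *Serpina1e* that did not meet both keratin limits (121 and 122 cells in libraries 1 and 2, median 11649 UMIs). This comparison asks what sets keratin 5 and 14 basal cells apart from *Krt19* and *Serpina1e* cells of the same organ. Cells with at least 5 *Krt5* UMIs could enter the non-sensory group if they had under 5 *Krt14* UMIs. It thus need not be free of basal-like cells. The 6 basal cell markers summed to 516 and 728 CPM there in libraries 1 and 2, against 5092 and 5248 CPM in basal cells. Levels below are CPM in libraries 1 and 2, and the log2 difference, basal minus other, with its standard error (SE) and Benjamini-Hochberg adjusted p is from the quasi-likelihood test of edgeR. Of 13970 genes tested, 1365 (9.77%) passed 0.05, 575 higher (4.12%) and 790 lower (5.65%) in basal cells, and the median over all genes was 0.04. With the library as a block the count was 2073, and with mitochondrial shares up to 10% allowed it was 3725. The list counts below are to be read beside the shares of 4.12 and 5.65% over all genes, and no list was tested as a set. The genes used to gate either group and mitochondrial genes were not tested, and as the groups were gated as cell types, a difference between them is part of the design.

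All 4 markers outside the rule were higher in basal cells. *Krt15* was at 1178 and 1199 CPM in basal cells and at 58.9 and 93.4 CPM in the non-sensory group (log2 4.01 ± 0.18 SE, adjusted p = 6.3e-08). *Dlk2* was at 140 and 128 CPM against 1.86 and 9.34 CPM (4.67 ± 0.32, adjusted p = 1.7e-06). *Trp63* (111 and 138 against 57.0 and 51.7 CPM, log2 1.21) and *Col17a1* (164 and 202 against 83.7 and 98.4 CPM, log2 1.03) differed less. The comparison group thus also held *Trp63* and *Col17a1*.

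Keratins divided the groups in both directions. Of 10 tested keratins, 6 were higher and 3 lower in basal cells, with a median log2 difference of 2.22. The higher ones included *Krt4*, *Krt6a*, *Krt13* and *Krt16*, each counted in at most 87 of 1077 members. The median thus rests in part on genes of few members. *Krt17*, a keratin of basal and wounded epithelium, was at 4020 and 3753 CPM against 2370 and 2238 CPM (log2 0.78 ± 0.15, adjusted p = 0.0059). *Krt16*, which is expressed with it in stressed epidermis, was at 24.9 and 25.7 against 2.48 and 1.44 CPM (log2 3.66), but it was counted in 87 of 1077 members, 1% of which held 61.5% of its UMIs. The keratins of simple epithelium were lower, namely *Krt8* (683 and 724 against 1763 and 1668 CPM, log2 −1.27) and *Krt18* (1732 and 1852 against 3603 and 2929 CPM, log2 −0.85). *Krt23* was lower as well (log2 −0.92), whereas *Krt7* was at 494 and 447 against 470 and 462 CPM and did not pass (adjusted p = 0.92). *Krt4*, *Krt6a* and *Krt13*, keratins of stratified squamous epithelium, were at most at 49.0 CPM in basal cells and rested on few cells, which are described below.

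Genes that attach cells to the basement membrane were higher where they differed. In the hemidesmosome and laminin list, 8 of 17 tested genes were higher and 0 lower, with a median of 0.56. *Itgb4*, the integrin chain of hemidesmosomes, was at 132 and 133 CPM against 62.6 and 46.7 CPM (log2 1.29 ± 0.18, adjusted p = 0.00044). *Lamb3*, a chain of the laminin that hemidesmosomes bind, was at 126 and 124 against 50.8 and 45.3 CPM (log2 1.40), and *Bcam*, a receptor for laminin, at 195 and 205 against 65.7 and 81.2 CPM (log2 1.48). *Itga3* was also higher (log2 1.24). *Itga6*, the partner chain of *Itgb4*, was at 109 and 139 against 105 and 149 CPM and did not pass (adjusted p = 0.99). *Lama3* (log2 1.52), *Plec* (0.56) and *Dst* (0.62) were called higher, but *Lama3* and *Plec* did not pass with DESeq2 (0.05) and none of these 3 passed in thinned cells. Of 13 matrix genes, 4 were higher and 0 lower. *Agrn*, a heparan sulfate proteoglycan of basement membranes, was at 72.8 and 93.1 against 36.0 and 38.8 CPM (log2 1.17), and *Col7a1*, which forms anchoring fibrils, at 35.3 and 41.2 against 8.68 and 23.7 CPM (log2 1.30, not called in thinned cells).

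Lateral junction genes differed in both directions. Of 18 tested, 3 were higher, 5 were lower and 10 did not pass. *Dsc3*, a desmosomal cadherin of basal layers, was at 26.2 and 27.7 CPM against 1.86 and 3.59 CPM (log2 3.34 ± 0.34, adjusted p = 5e-05), and its partner *Dsg3* was at 9.46 and 6.84 against 1.24 and 2.16 CPM (log2 2.30). *Pkp3* was higher as well (log2 0.84), and neither *Dsg3* nor *Pkp3* passed with DESeq2. The lower genes included the claudins of tight junctions, with *Cldn4* at 322 and 279 against 965 and 648 CPM (log2 −1.41), *Cldn7* at 178 and 173 against 666 and 545 CPM (log2 −1.77), and the adhesion gene *Epcam*, at 535 and 625 against 1193 and 1192 CPM (log2 −1.02). *Cdh1*, the gene of E-cadherin, was at 54.7 and 71.5 against 104 and 146 CPM (log2 −0.96), and *Pkp2*, of desmosomes like the higher genes, was lower too (log2 −1.91, not called in thinned cells).

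Among 28 transcription factors of basal and olfactory stem cells, 4 were higher and 2 lower, and the median was 0.01. Apart from *Trp63*, these were *Klf4*, a factor of epidermal barrier cells (962 and 1207 against 728 and 802 CPM, log2 0.52), *Id3* (log2 0.47) and *Bcl11b* (log2 1.95). These 3 calls were not made in thinned cells. The lower genes were *Grhl3* (3.15 and 2.52 against 16.7 and 14.4 CPM, log2 −2.42) and *Elf3*, an epithelial differentiation factor (468 and 420 against 854 and 854 CPM, log2 −0.92). *Sox2* and *Pax6*, which mark olfactory stem and supporting cells, were at 116 and 103 and at 54.5 and 59.4 CPM in basal cells, against 134 and 120 and 49.0 and 56.8 CPM, and did not pass (adjusted p = 0.55 and 0.69).

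In the Notch pathway, 2 of 17 tested genes were higher and 1 lower, with a median of 0.00. The shares over all genes were 4.12% higher and 5.65% lower, and the lower count of this list is near its share. *Dll1*, a Notch ligand, was at 58.5 and 69.5 CPM against 4.34 and 7.90 CPM (log2 3.43 ± 0.26, adjusted p = 3.7e-06), and the ligand *Jag2* was at 73.1 and 91.8 against 32.2 and 34.5 CPM (log2 1.32). The receptor *Notch3* was lower (2.84 and 2.16 against 13.0 and 8.62 CPM, log2 −2.08), a call lost when 10 UMIs of each keratin were required, whereas *Notch1* was at 49.8 and 58.9 against 47.7 and 50.3 CPM and the target *Hes1* at 630 and 710 against 872 and 838 CPM, and neither passed (adjusted p = 0.62 and 0.17).

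In the EGF and FGF pathway list, 11 of 21 tested genes were higher and 1 lower, with a median of 0.77. The list also held *Igf1r*, *Igfbp2*, *Igfbp3* and *Igfbp5*, which belong to insulin-like growth factor signalling. Over all genes tested, 4.12% were higher and 5.65% lower. With sums scaled to library totals only, 9 genes of this list were higher and 0 lower. The ligand *Ereg* was at 34.4 and 27.4 CPM against 0.62 and 2.16 CPM (log2 4.53) and *Nrg1*, the ligand of ErbB3 and ErbB4, at 40.5 and 58.7 against 3.72 and 10.1 CPM (log2 2.90 ± 0.33, adjusted p = 0.0001). *Igfbp2*, which binds insulin-like growth factors, was at 131 and 147 against 3.72 and 2.87 CPM (log2 5.39), but 66.0% of its UMIs in basal cells were in 1% of members and it was counted in 235. The receptor *Fgfr3* was at 34.7 and 43.2 against 12.4 and 15.8 CPM (log2 1.49), and *Erbb3*, a receptor for *Nrg1*, was the lower one (12.6 and 12.8 against 21.7 and 23.7 CPM, log2 −0.81), a call lost in 5 alternatives, DESeq2 and thinned cells among them. *Hbegf* was at 919 and 935 against 948 and 864 CPM and did not pass (adjusted p = 0.88).

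Of 24 Wnt pathway genes tested, 5 were higher and 2 lower. *Wnt4* was at 192 and 182 against 88.6 and 68.2 CPM (log2 1.26 ± 0.17, adjusted p = 0.00041) and the secreted modulator *Dkk3* at 67 and 67.9 against 25.4 and 23.7 CPM (log2 1.47). *Wnt10a* was at 23.0 and 16.7 CPM in basal cells against 1 UMI in the non-sensory sums (60.4-fold, 95% counting interval 10.7 to 2394), and *Wnt6* likewise rested on 1 UMI there (27.0-fold, 4.75 to 1077). *Wnt5a* was lower (6.62 and 9.36 against 19.8 and 16.5 CPM, log2 −1.18), a call not made with DESeq2 or in thinned cells. In the BMP and TGF-beta pathway, 7 of 17 were higher and 0 lower. The BMP antagonist *Nbl1* was at 345 and 298 against 120 and 113 CPM (log2 1.49), the activin antagonist *Fst* at 76.1 and 91.1 against 39.7 and 19.4 CPM (log2 1.49), and *Bmp4* at 18.3 and 18 against 6.20 and 7.18 CPM (log2 1.46, not called by DESeq2). Of 17 neurotrophin and ephrin genes, 3 were higher, among them *Ntrk3*, the receptor of neurotrophin 3 (14.7 and 23.8 against 1.24 and 3.59 CPM, log2 3.03), and *Ngfr*, the shared neurotrophin receptor (45.2 and 55.5 against 27.9 and 21.6 CPM, log2 1.03), whereas *Ntrk2* was lower (log2 −2.34). Neither *Ngfr* nor *Ntrk2* passed in thinned cells.

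Genes of defence and metabolism differed in both directions. Of 24 cytokine and interferon genes, 6 were higher and 3 lower. The chemokine *Cxcl14* was at 38.5 and 29.0 CPM and had 0 UMIs in the non-sensory sums, which makes it at least 34.1-fold higher with a floor of 3 counts over the group. *Ccl20*, which attracts dendritic cells and lymphocytes, was at 24.9 and 48.6 against 6.20 and 0.72 CPM (log2 3.32, not called by DESeq2, with 61.4% of UMIs in 1% of members), and *Cxcl17* was lower (149 and 137 against 449 and 464 CPM, log2 −1.64). Of 23 redox and xenobiotic enzymes, 5 were higher and 4 lower. *Adh7*, a retinol dehydrogenase of epithelia, was at 170 and 147 against 27.3 and 28.7 CPM (log2 2.53 ± 0.18, adjusted p = 2.2e-06), *Gpx2* was lower (440 and 355 against 901 and 973 CPM, log2 −1.20), and *Aldh1a1*, which makes retinoic acid, was lower as well (0.95 and 4.86 against 50.8 and 35.9 CPM, log2 −3.93). *Aqp3*, a water and glycerol channel of basal cells, was at 888 and 1022 against 574 and 649 CPM (log2 0.67), and *Aqp4* at 170 and 160 against 311 and 351 CPM (log2 −0.97). The adhesion molecule *Icam1*, a surface mark of olfactory horizontal basal cells, was at 233 and 240 against 74.4 and 92.7 CPM (log2 1.53 ± 0.14, adjusted p = 2e-05). Immediate early and stress genes were higher in 5 of 18 cases, with *Fos* at 7834 and 7049 against 4747 and 4341 CPM (log2 0.74) and *Hspa1a* at 447 and 439 against 245 and 236 CPM (log2 0.90). *Hspa1a* has a near-identical copy, *Hspa1b*, so that the split of reads between them is uncertain.

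Of the 8 tested markers of the non-sensory group itself that no gate used, 7 were lower in basal cells, among them *Ltf*, the gene of the secreted antimicrobial lactoferrin (130 and 223 against 4503 and 2686 CPM, log2 −4.36). The 10 genes with the largest differences toward the non-sensory group, taken by a fixed rule, included *Clca3b* (0.47 and 0.36 against 214 and 314 CPM, log2 −9.15) and several genes of motile cilia. *Dnah5*, an axonemal dynein, had 1 UMI in basal cells and was at 31.0 and 52.4 CPM in the other group, and *Cfap126* (0.79 and 0.72 against 32.9 and 36.6 CPM, log2 −5.43), *Tmem212* (log2 −6.49) and *Dynlrb2* (log2 −5.10) showed the same order. The remaining ones were *AU040972*, *Gm19935*, *Cidea*, *Wfdc3* and *4833427G06Rik*, each with at most 1.62 CPM in basal cells.

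**Figure D3:**
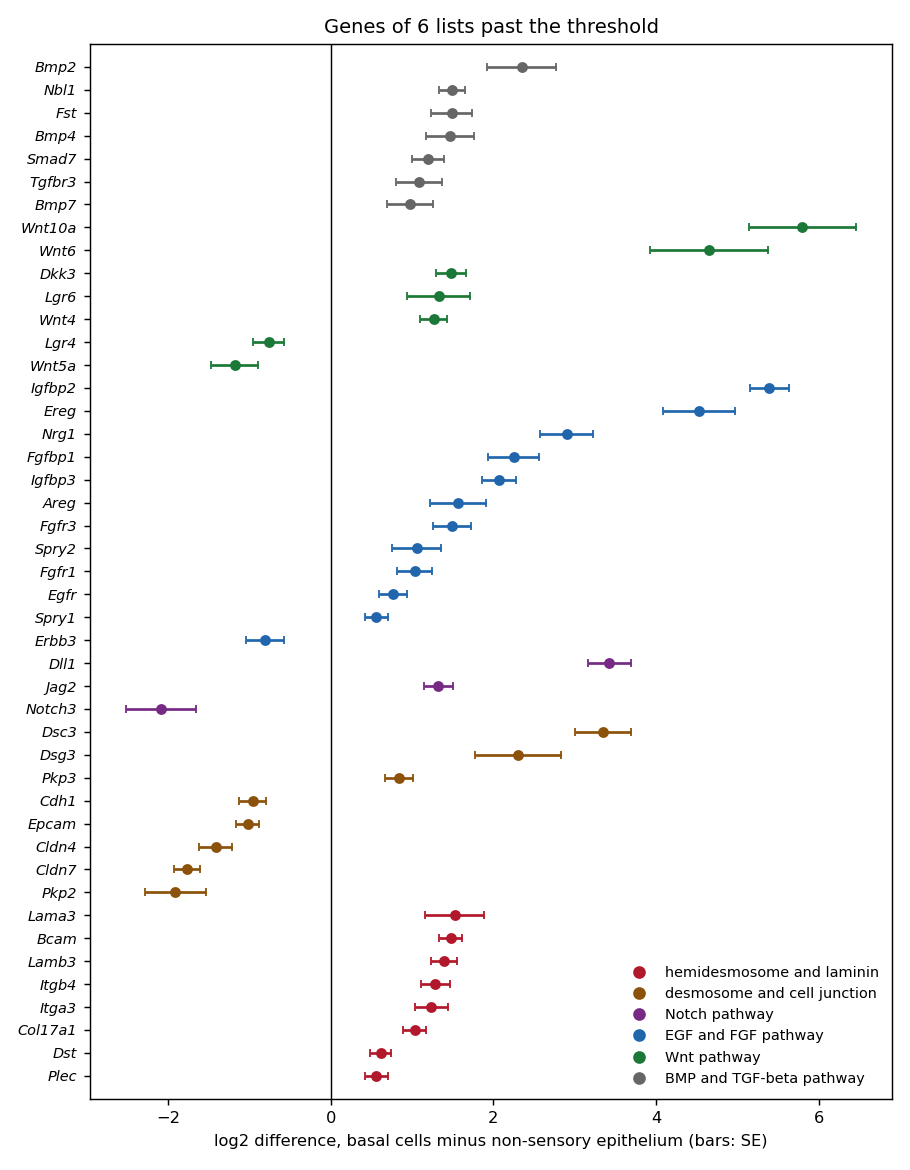
Log2 difference between basal cells and the non-sensory epithelium (edgeR, basal minus other, error bars are 1 SE) for the genes of 6 lists that passed the threshold, coloured by list. *Wnt10a* and *Wnt6* rest on 1 UMI in the non-sensory sums, so that their places are uncertain, *Igfbp2* (5.39) has 66.0% of its UMIs in 1% of members, and the hemidesmosome and laminin genes lie between 0.56 and 1.52.

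Marker lists of cells that should be absent were low in the basal sums but not at 0. The fibroblast and mural list summed to 455 and 385 CPM in basal cells against 47.1 and 239 CPM in the non-sensory group and 2080 and 1865 CPM over all kept cells, and 3 of its 11 genes (*Col1a1*, *Lum* and *Tagln*) were called higher. Their UMIs sat in few cells, since 1% of members held 95.5% of *Col1a1*, 96.5% of *Lum* and 95.2% of *Tagln* UMIs, and none of the 3 calls was made without the 50 members that carried other cells' markers. The calls of *Sparc* and *Col4a2* among the matrix genes and of *S100a8* of neutrophils were lost in the same way. MHC class II genes were higher in 4 of 7 cases, with *H2-Ab1* at 58.2 and 74.5 against 18.6 and 15.8 CPM (log2 1.95) and *Cd74* at 162 and 230 against 81.8 and 90.5 CPM (log2 1.21). The *Cd74* call was lost without those 50 members and that of *H2-Ab1* was not, and 1% of members held 61.4% of *Cd74* and 52.7% of *H2-Ab1* UMIs. With mitochondrial shares up to 10%, *Cd74* was lower in basal cells (log2 −0.53, adjusted p = 0.02). The share of these genes that came from other cells was not tested.

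Among the 10 genes with the largest differences toward basal cells were *Spink5*, a protease inhibitor of the epidermal barrier, *Krt4*, *Krt6a*, *Krt75* and *Krtdap*. These were not general to basal cells. *Spink5* was at 91.9 and 25.9 CPM, but 94.4% of its UMIs were in 1% of members and it was counted in 28 members. *Krt6a* was counted in 50, *Krt4* in 42 and *Krt75* in 24 members. A set of 17 members (12 and 5 in libraries 1 and 2) had at least 3 UMIs of 2 or more of *Krt4*, *Krt6a*, *Krt13*, *Krt75* and *Spink5*, a set drawn after these values were seen and so given with no test. It had a median of 21475 UMIs, 0 doublet marks, *Krt15* at 4427 CPM against 1085 CPM in other members, and *Krt5* at 3307 against 1134 CPM. *Trp63* was at 35.6 against 126 CPM, *Dlk2* at 8.21 against 138 CPM and *Apoe* at 485 against 5557 CPM. Without these 17 cells the calls of *Krt75*, *Spink5*, *Dsg3* and *Id3* against the non-sensory group were lost, and those of *Krt4*, *Krt6a*, *Krt15* and *Dlk2* were not.

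Other genes of that group of 10 were spread over more members. *Cxcl14* was counted in 129 members (12.0%, against 3.96% of C1q-high cells), *Gpha2*, a glycoprotein hormone subunit, in 146 (13.6% against 0.89%), and *Sult5a1* and *Fmod* in 102 each (9.47% against 0.30 and 0.41%). *Gpha2* was at 23.2 and 19.1 CPM against 1 UMI in the non-sensory sums (63.9-fold, 11.4 to 2534), *Sult5a1* was at least 10.4-fold higher and *Fmod* at least 10.2-fold higher, with 0 UMIs there. *Mfap4*, a matrix gene, was at least 20.7-fold higher but was counted in 14 members, with 98.8% of its UMIs in 1% of the cells.

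Sustentacular cells, the supporting cells of the sensory epithelium (at least 3 UMIs of *Cyp2a5* and 1 UMI of *Fezf2*, 263 and 240 cells, median 16219 UMIs), were compared next. Their own marker list summed to 2949 and 2772 CPM there, against 4630 and 4220 CPM in basal cells. In basal cells *Cbr2* of this list was at 4567 and 4144 CPM. Of its 5 tested genes, 2 were higher and 3 lower in basal cells, with a median log2 difference of −3.79. Of 15409 genes tested, 8436 (54.7%) passed, 4164 higher (27%) and 4272 lower (27.7%). With sums scaled to library totals only, 2473 were higher and 6455 lower and the median over all genes moved from −0.02 to −0.48, so that small differences here depend on the scaling. The 4 markers were higher, with *Krt15* at 1178 and 1199 against 4.09 and 5.03 CPM (log2 8.48 ± 0.16, adjusted p = 5.7e-06), *Trp63* at 111 and 138 against 0.51 and 0.54 CPM (log2 8.28) and *Dlk2* at 140 and 128 against 0.68 and 0.72 CPM (log2 7.99). The hemidesmosome and laminin list was higher in 16 of 17 genes (13 with library totals), among them *Lamb3* (126 and 124 against 2.56 and 1.98 CPM, log2 6.22). *Icam1* (233 and 240 against 3.58 and 2.70 CPM, log2 6.68), *Wnt4* (log2 6.65), *Dll1* (log2 6.92), *Ngfr* (log2 7.22), *Aqp3* (log2 6.19) and *Adh7* (log2 7.35) were also higher, and each of these kept its direction and call in every alternative run.

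Of 11 tested keratins, 8 were higher and 3 lower in basal cells than in sustentacular cells. The higher ones included *Krt4*, *Krt6a*, *Krt13* and *Krt16*, each counted in at most 87 members. Simple keratins were found in both directions, since *Krt7* (494 and 447 against 54.4 and 42.2 CPM, log2 3.74) and *Krt19* (535 and 522 against 172 and 149.9 CPM, log2 2.17) were higher. The lower keratins were *Krt8*, *Krt18* (1732 and 1852 against 5112 and 4649.9 CPM, log2 −0.99) and *Krt23*. *Krt8* was at 683 and 724 against 3163 and 2783 CPM (log2 −1.63), *Krt23* at 64.0 and 83 against 895 and 878 CPM (log2 −3.14) and *Cldn7* at 178 and 173 against 1848 and 1580.2 CPM (log2 −2.83). All 7 MHC class II genes were lower in basal cells, with *Cd74* at 162 and 230 against 4500.3 and 3578 CPM (log2 −3.92) and *H2-Ab1* at 58.2 and 74.5 against 905 and 774 CPM (log2 −3.21). *Igfbp2*, higher in basal cells than in the non-sensory group, was lower than in sustentacular cells (131 and 147 against 609.8 and 520.3 CPM, log2 −1.57). *Isl1* and *Pitx1*, homeobox genes, were among the 10 largest in favour of basal cells, with *Isl1* at least 62.4-fold higher (17.8 and 14.8 CPM against 0 UMIs) and counted in 111 members, and *Pitx1* at 29.0 and 19.8 CPM against 1 UMI (282-fold, 95% counting interval up to 11194) and in 146. *Krt6a* was at least 162-fold and *Krt75* at least 97.7-fold higher, with 0 UMIs there. *Ccl20*, *Spink5*, *Krt4* and *Krtdap* had 1 UMI each in the sustentacular sums. Toward sustentacular cells, the largest were *Ces1f*, a carboxylesterase (0.47 and 0.18 against 24.5 and 25.2 CPM, log2 −5.67), *Ctf2* (log2 −5.28), *S100g* (log2 −5.23), *S100a5* (log2 −5.28) and *Vpreb3* (log2 −4.97). *Traf3ip3*, *Ugt8a*, *Stxbp5l* and *H2-M10.3* had 2 or 3 UMIs in basal cells, and *H2-M10.5* was at 0.63 and 0 against 48.9 and 23.4 CPM. *H2-M10* genes are known from vomeronasal neurons, and the mature neuron list summed to 3858 and 3817 CPM in the sustentacular sums against 403 and 478 CPM in basal cells. All 9 of its tested genes were lower in basal cells, and the part of neuronal transcripts in these differences was not tested.

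Neurogenic progenitors and precursors (at least 3 UMIs of *Neurog1* and *Neurod1* together, 100 and 89 cells, median 9173 UMIs) include the dividing cells from which VNO neurons are made. Of 14205 genes tested, 7338 (51.7%) passed, 4106 higher (28.9%) and 3232 lower (22.8%) in basal cells. With library totals only, 2516 were higher and 5649 lower and the median moved from 0.16 to −0.50. *Col17a1* had 0 UMIs in the neurogenic sums, which makes it at least 121-fold higher in basal cells. *Krt15* was at 1178 and 1199 against 17.5 and 5.51 CPM (log2 7.29 ± 0.32, adjusted p = 7e-08), *Trp63* at 111 and 138 against 6.44 and 0 CPM (log2 5.79) and *Dlk2* at 140 and 128 against 4.6 and 0 CPM (log2 6.38).

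The Notch genes divided between the groups. Of 21 tested, 8 were higher and 8 lower in basal cells (7 and 9 with library totals). *Hes1* was at 630 and 710 CPM in basal cells against 34.1 and 32.0 CPM (log2 5.00), whereas *Hes5*, another Notch target, had 2 UMIs in basal cells and was at 106 and 152 CPM in the neurogenic group. The ligand *Dll4* had 3 UMIs in basal cells and was at 23.0 and 34.2 CPM in neurogenic cells, and *Dll3* had 0 UMIs and was at least 23.9-fold lower. *Mfng*, which modifies Notch receptors, was at 0.79 and 0.54 against 332 and 310 CPM (log2 −8.17). *Notch1* was at 49.8 and 58.9 against 47.9 and 71.7 CPM, with overlapping groups. Its log2 difference of 0.54 passed (adjusted p = 0.041), but it did not with DESeq2 (0.16) or with 10 UMIs of each keratin (0.19), and with library totals it was −0.12 (0.64).

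Most tested progenitor markers were lower in basal cells. *Neurog1*, which gated the other group and was not tested, was counted in 1 of 1077 members, and *Kit*, a receptor of globose basal cells, in 7 (0.65%, against 0.53% of C1q-high cells). Members were also chosen with 0 UMIs of *Neurod1*. Low levels of genes expressed with it may thus be set in part by the gates of both groups. Of 10 tested progenitor markers, 1 was higher and 9 were lower in basal cells. *Insm1* was at 0.79 and 3.78 against 496 and 659 CPM (log2 −7.35) and *Sox11* at 3.31 and 13.9 against 1844 and 2446 CPM (log2 −7.33), and *Lhx2*, a homeobox gene of sensory neurons, was at 6.15 and 11.7 against 1546 and 1382 CPM (log2 −6.71). Some markers of the list were common in basal cells all the same, with *Stmn1* in 40.9% of members (16.5% of C1q-high cells) and *Sox2* in 58.6% (5.55%). The higher one was *Sox2*, at 116 and 103 against 111 and 101.4 CPM (log2 0.71, adjusted p = 0.0051), and *Pax6*, at 54.5 and 59.4 against 65.4 and 47.4 CPM, was also called higher (log2 0.66, adjusted p = 0.019). Neither passed with library totals, where the log2 differences were 0.04 and 0.0034 (adjusted p = 0.82 and 0.99), and the *Pax6* call was also lost with DESeq2, with mitochondrial shares up to 10% and with 10 UMIs of each keratin. The largest differences toward the neurogenic group also held *Tex14* (at least 734-fold lower in basal cells, 0 UMIs) and *Sct*, the gene of the peptide hormone secretin (0.32 and 0.90 against 300.1 and 255 CPM, log2 −8.14), with *Nsg2* at 0.16 and 0.72 against 185 and 212 CPM. *Tekt1*, *Clvs1*, *Uncx*, *Gmnc* and *Gm10631* had 1 to 3 UMIs in basal cells. Toward basal cells, *Csf3*, *Krt6a*, *Ccl20*, *Palmd*, *Tmem40*, *Pde4b*, *Fgf1*, *Efna1* and *Spink5* had 0 UMIs in the neurogenic sums and were at least 20.8- to 40.6-fold higher. All 18 immediate early and stress genes were higher in basal cells, whose list summed to 47821 and 47836 CPM against 5597 and 3907 CPM. Such genes are known to respond to tissue dissociation, and its part in these levels was not tested.

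Few basal cells carried genes of cell division. At least 5 of 16 such genes were counted in 49 of 1077 members (4.55%, 3.38 to 5.97%), 3.39% in library 1 and 5.80% in library 2, and those cells had a median of 17823 UMIs. After thinning, 26 of 971 members (2.68%, 1.76 to 3.90%) remained, against 27.7% of neurogenic cells (21.2 to 35.1%) and 6.60% of non-sensory cells (3.66 to 10.8%). The thinned share was 1.12% in sustentacular cells (0.36 to 2.59%) and 3.85% in C1q-high cells (2.21 to 6.17%, over the 416 deep enough to thin). Without thinning, the share was 1.42% in all 1694 C1q-high cells (0.91 to 2.10%), which are shallower than members. These intervals cover counting error over cells and not the spread between libraries. By library, the thinned share was 1.56 and 3.94% in members and 31.9 and 23.2% in neurogenic cells. In C1q-high cells it was 3.85% in each library. In sums, 11 of the 16 genes were lower in basal than in neurogenic cells (16 with library totals), with *Mki67* at 11.3 and 10.4 against 176 and 106 CPM (log2 −3.04) and *Top2a* at 13.1 and 26.3 against 347 and 266 CPM (log2 −3.33). Over all genes tested there, 22.8% were lower, and 5649 of 14205 with library totals. Against sustentacular cells 14 of the 16 division genes were higher (11 with library totals). Over all genes tested there, 27% were higher, and 2473 of 15409 with library totals. Against non-sensory cells 0 of the 16 were higher and 1, *Ube2c*, was lower, a call lost in 5 alternatives.

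The members also varied among themselves. Over 9348 genes counted in at least 5% of members, the 20 with the largest variance beyond counting noise within each library were led by *Edn2*, an endothelin, *Mt1*, a metallothionein, and *Reg3g*, a secreted antibacterial lectin. They went on with *Krt17*, *Gadd45g*, *Prdx6*, *Ier3*, *Krt15*, *Apoe*, *Hspb1*, *Cebpd*, *H3f3b*, *Sprr1a*, *Klf2*, *Hbegf*, *Nupr1*, *Krt18*, *Krt14*, *Scgb1c1* and *Wfdc18*, of which *Krt14* is a gene of the rule. *Edn2* was counted in 35.8% of members (3.72% of C1q-high cells), with a 90th percentile of 19.2 and 28.1 UMIs per 10000 in libraries 1 and 2 and a median of 0 in both. *Reg3g* was counted in 63.9% (13.4% of C1q-high cells), with medians of 3.23 and 2.69 and 90th percentiles of 55.5 and 41.7 UMIs per 10000. *Apoe* ran from 13.0 and 16.7 at the 10th to 112 and 108 UMIs per 10000 at the 90th percentile, and *Krt15* from 0 to 27.2 and 28.9. All 20 stayed in the list in thinned cells and without marked doublets, and 16 stayed when either library was ranked alone.

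**Figure D4:**
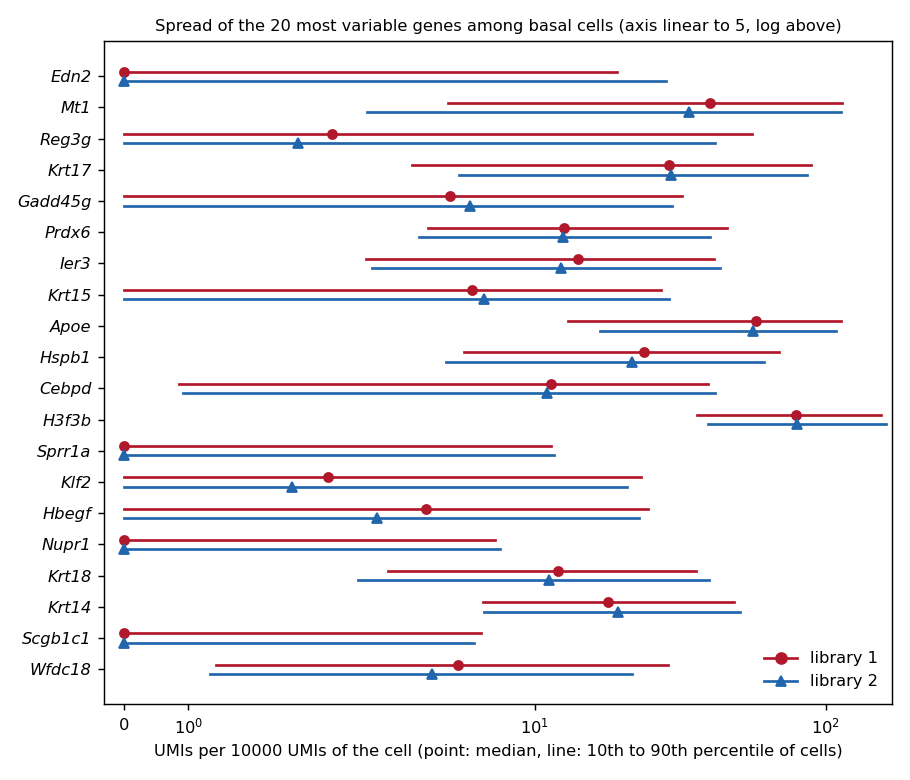
UMIs per 10000 UMIs of a cell for the 20 most variable genes among basal cells, by library, with the median as a point and the range from the 10th to the 90th percentile as a line (axis linear to 5 and logarithmic above). *Edn2* has a median of 0 and a 90th percentile of 19.2 and 28.1, whereas *Apoe* is at 57.4 and 56.1 at the median.

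The variable genes moved in groups within each library. Over 560 and 517 cells, which share a capture and differ in depth, Pearson's r was 0.66 and 0.64 for *Krt18* with *Krt8*, 0.52 and 0.52 for *Prdx6*, a peroxiredoxin, with *Krt19*, and 0.52 and 0.45 for *Reg3g* with *Prdx6*. *Apoe* ran against them, at −0.49 and −0.44 with *Prdx6*. *Krt15* went with *Krt5* (0.45 and 0.37) and with *Lgals7* (0.41 and 0.34). The immediate early genes *Fos* and *Junb* formed a separate pair (0.66 and 0.63), as did *Ier3* with *Nfkbia* (0.54 and 0.49). The highest r, 0.94 and 0.91 for *Selenom* with *Calb2*, goes with the 23 members that carried mature neuron markers, in which *Calb2* was at 2535 CPM against 158 CPM over all members.

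A view of the same axis was taken by ordering the members of each library by the share of their UMIs from *Krt8*, *Krt18* and *Krt19* and comparing the top with the bottom of 3 equal parts, a split made after seeing these values and described with no test. *Ltf* was at 28.8 and 33.6 CPM in the lowest and 282 and 504 CPM in the highest part, *Serpina1e* at 15.4 and 10.8 against 192 and 106 CPM, and *Cldn4* at 120 and 105 against 591 and 481 CPM. Over all members, 74.5% of *Ltf* UMIs (563 of 2060 in 1 cell) and 53.9% of *Serpina1e* UMIs were in 1% of cells, whereas for *Cldn4* this share was 10.7%. *Prdx6* was at 1242 and 1249 against 4231 and 3367 CPM. In the opposite direction, *Lgals7* went from 357 and 401 to 107 and 122 CPM, *Dlk2* from 172 and 178 to 92.0 and 69.9 CPM and *Dll1* from 75 and 104 to 36.5 and 38.8 CPM. *Krt15* (1470 and 1630 against 882 and 906 CPM) and *Trp63* (140 and 176 against 84.0 and 102 CPM) were also lower in the part richest in simple keratins, in both libraries. Of the genes on which members were chosen, *Krt5* was at 1348 and 1381 against 1016 and 1038 CPM and *Krt14* at 2637 and 2783 against 2236 and 2008 CPM. The median depth was 9506 and 8875 UMIs in the lowest part and 11089.5 and 10445 UMIs in the highest. A deeper cell can meet a limit in UMIs at a lower CPM, and the part of depth in these values was not tested. *Itgb4*, *Wnt4*, *Krt17*, *Hes1* and *Notch1* went in opposite directions in the 2 libraries.

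**Figure D5:**
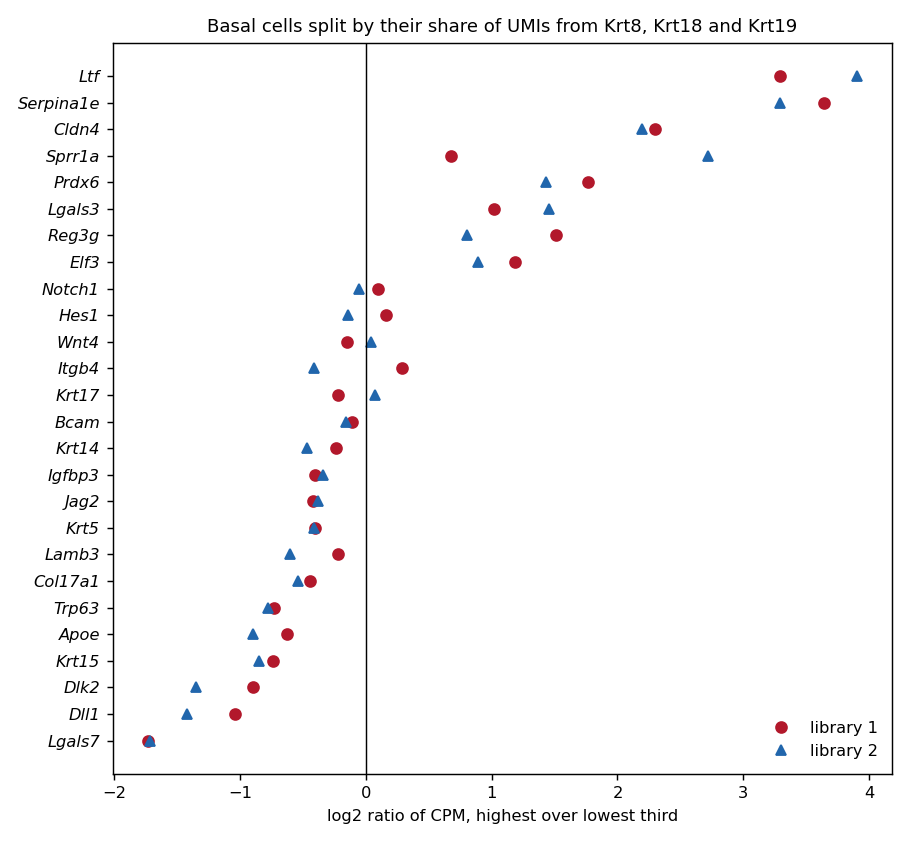
Log2 difference between basal cells with the highest and the lowest share of *Krt8*, *Krt18* and *Krt19* UMIs, as the log2 ratio of CPM (highest over lowest, 1 point per library). *Ltf*, *Serpina1e* and *Cldn4* lie above 2, the first 2 with over 50% of their UMIs in 1% of members, and *Lgals7* below −1.71 in both libraries.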

How the data were processed

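Vomeronasal organs of postnatal day 60 mice were profiled as 2 droplet libraries of 1 group. Per the labels and the study's methods, the authors made the deposited counts with Cell Ranger 4 on mm10, aggregated the libraries and kept filtered barcodes. The counts are UMIs per gene and barcode, whole numbers and not normalized. The sources used here give neither the depth setting of the aggregation nor the use of strand.

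Members were gated on UMIs as stated in the results. The gate and the marker list of the neurogenic group were drawn without 1 gene that is not reported here, a change to the planned gate made after the values were seen. The members and gene lists were chosen with earlier results of these data known. The UMIs of each cell group were added up within each library, and these sums were tested with edgeR 4.0.16 (glmQLFit and glmQLFTest, TMM scaling, genes with at least 10 UMIs over the 4 sums, Benjamini-Hochberg over all tested genes, threshold 0.05). Only the groups compared entered a fit, cells in more than 1 comparison gate were left out, and gate genes and mitochondrial genes were not tested. CPM are UMIs per 1000000 UMIs of the summed cells, without the TMM factor. SE is the log2 difference over the root of the F statistic. Doublets were marked with Scrublet in scanpy 1.11.5 and kept. Thinning drew 6888 UMIs (the 10th percentile of members) from each deeper cell and left out 106 members and 1278 of 1694 C1q-high cells. Variance was that of Pearson residuals within each library, with an overdispersion of 0.01. Genes named without a list were the 10 largest differences in each direction with at least 50 UMIs per library in the higher group and the same sign in both libraries, leaving out ribosomal protein and vomeronasal receptor genes, and the 20 most variable genes. Intervals are exact binomial or, for ratios with 1 to 3 UMIs, exact counting intervals, both at 95%.

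The 2 sums of one number came from one capture, so the numbers pair the samples. Deviations of same-numbered sums correlated at 0.0995, 0.107 and 0.0978 across genes for the non-sensory, sustentacular and neurogenic groups. Counts of the 2 libraries differed beyond sampling noise in each group (chi-square per degree of freedom 2.63 to 6.67). On simulated counts the test recovered 38% of genes changed by log2 1 and 70% by log2 2 in the non-sensory comparison (13688 genes), and 3.23% of its calls were false. Alternatives were the library block, DESeq2 1.42.0, its size factors, library totals, other filters, other limits of the rule and leaving out sets of cells or a library. Those without neuron-bearing members, without members carrying other cells' markers, without the 17 squamous-keratin members and with library totals were chosen after seeing the data.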

Additional observations from a re-analysis of the deposited data

Results flagged for a closer look

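Above the mitochondrial limit of 5%, and thus outside the group described, 501 further barcodes met the keratin, C1q and *Neurod1* limits (261 in library 1 and 240 in library 2), a signal in cells that no main comparison used. Of these, 424 had 5 to 10% mitochondrial UMIs and entered only the alternative with the limit at 10%. In those, *Krt15* was at 1649 CPM, *Trp63* at 108 CPM, *Col17a1* at 189 CPM and *Dlk2* at 100.0 CPM, against 1188, 124, 182 and 134 CPM in members. The 77 with over 10% had *Krt15* at 1692 CPM, *Trp63* at 134 CPM and *Dlk2* at 90.7 CPM, with a median of 6865 UMIs. *Fos* was at 5984 and 5338 CPM in the 2 sets and at 7468 CPM in members.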

How the results depend on the processing

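Against the non-sensory epithelium the count of 1365 genes was 2073 with the replicate block, 803 with DESeq2, 3725 with mitochondrial shares up to 10% and 608 in thinned cells, in which fewer genes were tested. The block changed no other count by over 1.5 times and removed no named call. Counts against sustentacular and neurogenic cells stayed within 1.5 times in all alternatives, although library totals changed their split as given above. The direction of the called genes in one library alone held for 1360 to 1362, 8434 to 8435 and 7332 to 7334 genes, values with no test. Members were 8.03% of kept cells with the mitochondrial limit at 10%, 12.4% with 3 UMIs of each keratin and 4.66% (494 cells) with 10. With 10 UMIs, *Krt15* was found in 89.7%, *Dlk2* in 64.2% and division genes in 7.69% of members; in thinned members *Krt15*, *Trp63*, *Col17a1*, *Dlk2* and division genes were in 83.1, 55.5, 70.2, 49.7 and 2.68%. By library these shares were 85.9 to 86.8, 64.5 to 71.2, 80.4 to 84.5, 58.2 to 59.3 and 3.39 to 5.80%, and 16 of the 20 variable genes were shared by either library.

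Of 2812 alternatives for 176 single genes, 2578 kept direction and side of the threshold, 67 lost and 7 gained the call, 143 leave-one-out values moved, and 17 changed sign. Non-sensory log2 values that changed sign were *Krt7* (−0.12) and *Cd74* (−0.53) with mitochondrial shares up to 10%, *Itga6* without a filter (0.019), without doublets (0.012), with the 10% limit (0.19), without neuron-bearing members (0.092) and without members carrying other cells' markers (0.13), *Sox2* in thinned cells (0.0089) and *Pax6* with 10 UMIs of each keratin (−0.15). Without members carrying other cells' markers *Col1a1* (−1.71), *Lum* (−1.70), *Tagln* (−0.72) and *S100a8* (−0.61) also did, and *S100a8* without doublets (−0.88), with the 10% limit (−0.24) and with 10 UMIs (−0.084). With library totals, *Notch1* (−0.12) did so against neurogenic cells. The cause was not tested. Genes under 10 CPM rest on few UMIs in the smaller sums (907063 to 1613275 UMIs), where small differences were not detectable.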

Other observations

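The levels of 4 genes that varied among basal cells, chosen after their values were seen, also differed between basal and non-sensory cells, which was not so for each variable gene (*Hbegf*, adjusted p = 0.88 with edgeR, and *Edn2*, 0.48, did not pass, although *Edn2* did with mitochondrial shares up to 10%). *Lgals7*, a galectin of stratified epithelium, was at 206 and 211 CPM in basal cells against 8.68 and 12.2 CPM (log2 4.35 ± 0.20, edgeR adjusted p = 6e-08), and *Apoe*, an apolipoprotein, at 5423 and 5376 against 757 and 1096 CPM (log2 2.58). *Prdx6* (2563 and 2180 against 9489 and 8043 CPM, log2 −1.86) and *Reg3g* (2018 and 1491 against 8078 and 6343 CPM, log2 −2.02) were lower in basal cells. Each library showed the direction of all 4.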
